A study of Mus musculus with 8 samples.

Results

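RNA-seq of whole hearts was compared between late and early db/db mice. Hearts aged 24 and 32 weeks formed the late side, those aged 4 and 12 weeks the early side, with 1 library at each age, so that 4 of the 8 libraries of the series entered the comparison. The other 4 libraries were db/m hearts of the same ages. The study's sequencing methods do not describe the 12-week libraries, whose genotype and age were taken from the labels alone. Labels of all 8 gave the strain as C57BL/KsJ, the tissue as heart and no treatment, and the study used male mice. The db/db mice were 4, 12, 24 and 32 weeks old and carry 2 copies of the db allele of the leptin receptor gene Lepr, while db/m mice carry 1. The gene-level count of Lepr does not show which allele was read, so it does not check the genotype labels. Whether a library came from 1 heart or a pool was not given in the sources used here, although the study's methods assign more db/db mice to sequencing than there are db/db libraries. A p-value below measures only the spread among these libraries. Each side holds 2 different ages, so that this spread includes any change with age within a side.

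Mice that lack leptin signalling overeat and become obese, then hyperglycemic, and their hearts are a common model of diabetic cardiomyopathy. The heart also holds resident macrophages, which clear dying cells and make the complement protein C1q, and fibroblasts, which lay down collagen and elastin and are most active in the growing heart. Interferons raise antiviral genes, guanylate-binding proteins and the immunoproteasome, which makes peptides for class I antigen presentation. In whole tissue, fewer cells of a type and less RNA per cell cannot be told apart.

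The db/db libraries held 19246305 to 26676268 counts and the db/m libraries 14445436 to 22214678. Levels are given as CPM, the count of a gene relative to the library's total after TMM scaling within each genotype, and changes as log2 fold changes with their standard error (SE). Each SE was derived from edgeR's test, as the absolute log2 fold change divided by the square root of its F statistic. With 2 libraries a side the SE is itself uncertain, so a change many times its SE need not pass the adjusted threshold. All 8 defining heart muscle markers, among them Myh6, Tnnt2 and Ttn, stood at 1222 CPM or more in every db/db library. The 24-week db/db library stood apart from the other libraries in interferon genes. The summed level of 31 interferon-stimulated genes was 256, 211, 1885 and 377 CPM in order of age. The 4-week db/db library stood apart in valve and cartilage genes (Wif1, Fmod and Comp among the 10 listed), which summed to 85.7 CPM against 11.3 to 16.5 in the other db/db libraries.

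By edgeR's quasi-likelihood test, 1 of 15522 genes rose at an adjusted p under 0.05 (0.00644%) and 0 fell (0%). Without adjustment, 600 genes were higher and 366 lower at p under 0.05 (3.87% and 2.36%). DESeq2's Wald test called 154 genes higher and 40 lower (1.08% and 0.279% of 14318), and all 194 of them also had an unadjusted edgeR p under 0.05. In a description without a test, 757 genes (4.88%) had both late libraries above both early ones with a ratio of means of at least 1.5 after 0.5 CPM was added to each, and 468 (3.02%) had both late libraries below. An exact permutation test of a single gene with 2 libraries a side cannot give a two-sided p under 0.333. Below, a gene is called higher or lower by this non-overlap, and only the gene that passed edgeR's test is said to have risen.

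The gene that rose was Ccl8 (ENSMUSG00000009185, chr11:82115185-82116799 on GRCm38), which encodes a chemokine that draws monocytes and other leukocytes and is made by macrophages. Its level was 0.453 and 0.359 CPM in the early libraries and 16.8 and 18.6 CPM in the late ones. Both late libraries were far above both early ones and close to each other, on 434 and 377 counts against 10 and 9. The log2 fold change was 5.43 ± 0.29 (SE), a 43.6-fold ratio of the means with nothing added, with an adjusted p of 0.034 in edgeR's test. Without the 24-week library the change was 5.49 and the adjusted p 0.067, and in limma-voom the adjusted p was 0.217. With a filter of 1 CPM in every library Ccl8 was not tested, because of its low early levels. Over the other alternatives tried the adjusted p ranged from 1.79e-28 in DESeq2 to 0.675 with age as a rank, and the direction was the same in each. In db/m hearts Ccl8 stood at 3.66, 0.244, 0.186 and 1.11 CPM at the same ages.

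Most genes of macrophages were higher in both late libraries. Of 34 tested genes in the list of macrophages and antigen presentation, 22 were higher and 0 lower, against 4.88% and 3.02% of all genes, and the median log2 fold change was 1.25 against 0.00464 over all genes. DESeq2 called 16 of them higher, against 1.08% of all genes. Their summed level was 435 and 454 CPM in the early libraries and 1119 and 1181 in the late ones. In the 24-week library alone 26 members stood above both early libraries by the same rule, and in the 32-week library alone 23 did, against 934 and 1360 of all 15522 genes. None of the 34 passed edgeR's adjusted threshold except Ccl8.

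The 3 chains of C1q, which starts the classical complement pathway, followed each other closely. C1qa (chr4:136895917-136898803) was at 19.5 and 19.8 CPM in the early libraries and at 59.6 and 61.7 in the late ones. C1qb was at 28.2 and 23.9 CPM early and 85.0 and 94.7 late, and C1qc at 13.0 and 13.2 early and 38.7 and 43.4 late. Both late libraries were about alike for each chain, with log2 fold changes of 1.63 ± 0.16, 1.79 ± 0.18 and 1.65 ± 0.17 (SE) and adjusted p-values of 0.16, 0.16 and 0.174 in edgeR's test, which did not pass. Mpeg1, a pore-forming protein of phagocytes, was at 14.3 and 14.1 CPM early and at 51.4 and 43.4 late. Lgals3, which encodes galectin-3, was at 1.85 and 1.96 CPM early and at 10.8 and 9.04 late. Both had late libraries that did not overlap the early ones, with log2 fold changes of 1.74 ± 0.18 and 2.38 ± 0.26 (SE).

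**Figure D1:**
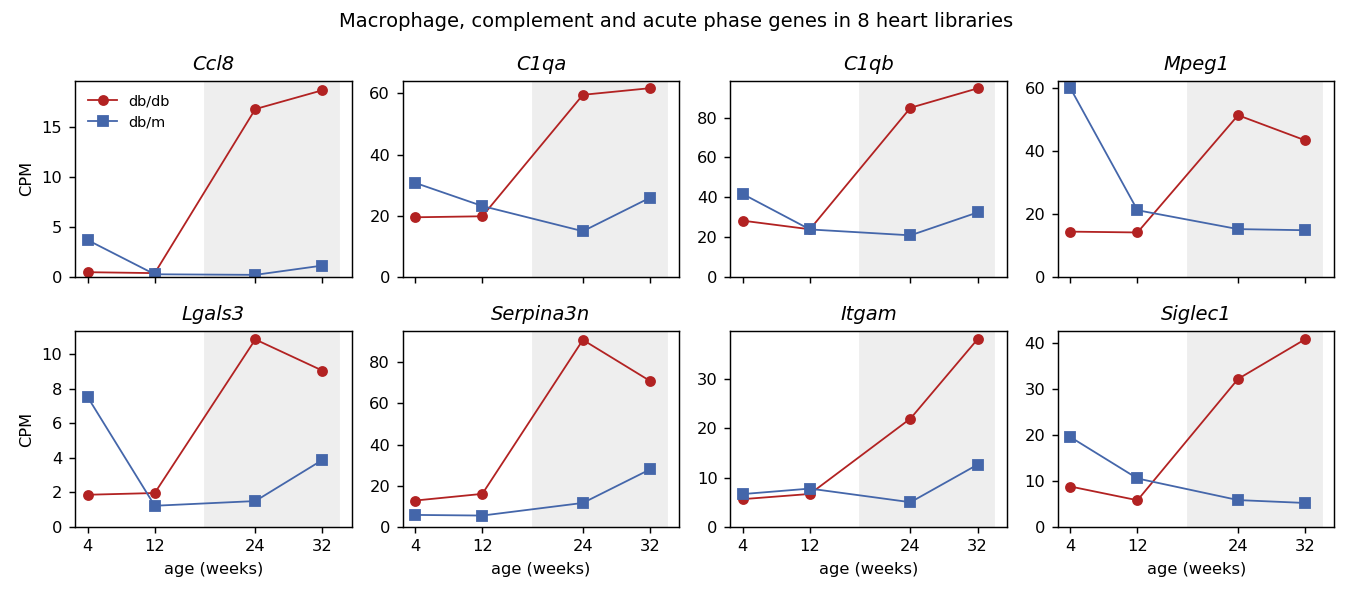
Levels of 8 macrophage, complement and acute phase genes in CPM (vertical axis, from 0) against age in weeks, with 1 library per point, db/db in red circles and db/m in blue squares, and the late ages shaded. In each panel both late db/db points lie above both early ones, and Mpeg1 and Lgals3 are highest among db/m libraries at 4 weeks.

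Markers of resident heart macrophages were among the higher genes. Timd4, a receptor for phosphatidylserine on dying cells, was at 0.407 and 0.758 CPM early and at 4.63 and 4.15 late. Lyve1 was at 16.7 and 12.0 CPM early and 40.4 and 37.0 late, and the hemoglobin scavenger receptor Cd163 at 35.9 and 33.9 early and 63.0 and 82.7 late. Siglec1, the sialic acid receptor of tissue macrophages, went from 8.78 and 5.78 CPM to 32.2 and 40.9. For all 4 genes the early and late libraries were apart. The integrin chain Itgam and the macrophage marker Adgre1 were highest at 32 weeks, with 38.0 and 51.3 CPM against 22.0 and 16.2 at 24 weeks and 8.42 or less early. Ccr2, the receptor of recruited monocytes, overlapped between the sides at 0.633, 2.55, 2.01 and 2.77 CPM in order of age. Trem2, Spp1, Cd14, Gpnmb and Itgax overlapped as well. Most of the stretches of 31 bases in Itgam transcripts (68.1%) also occur in transcripts of other gene models, so its count is less certain than those of C1qa, C1qb and C1qc, which share none.

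Lists compiled after the values had been seen cover neighbouring functions and are descriptions only. The share over all genes is 4.88% higher and 3.02% lower. Of 24 tested complement genes, 18 were higher and 0 lower. C1s1, a protease of the classical pathway, was at 17.7 and 14.4 CPM early and 67.5 and 52.5 late. C3, the central complement component, was at 93.9 and 148 CPM early and 614 and 1036 late, and C4b at 29.9 and 14.9 early and 130 and 151 late. C4b and C1s1 share 48.3% and 33.5% of their 31-base stretches with other genes and are uncertain. Of 23 genes of Fc receptors and the phagocyte oxidase, 19 were higher and 0 lower. Cybb, the catalytic subunit of the oxidase, was at 13.3 and 12.9 CPM early and 31.6 and 37.1 late. Of 16 acute phase genes, 12 were higher and 0 lower. The liver makes many acute phase and complement proteins, and of 12 tested liver markers 3 were higher and 0 lower, with a median of 0.82. Without the 24-week library 6 were higher (1360 of all 15522 genes), and without the 12-week library 9 were (1038 of all genes). Liver markers summed to 12.4, 28.6, 29.3 and 36.0 CPM in order of age, and their part in these values was not tested. Serpina3n, an inhibitor of serine proteases induced in inflammation, was at 12.8 and 16.0 CPM early and 90.9 and 70.9 late, with a log2 fold change of 2.49 ± 0.22 (SE) and an adjusted p of 0.16 in edgeR's test. Its relative Serpina3g was at 0.498 and 0.718 CPM early and 26.3 and 13.2 late. Of 26 tested chemokines and chemokine receptors, 13 were higher and 2 lower. Serpina3n and Serpina3g share 21.6% and 28.4% of their 31-base stretches with other genes.

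Another group was highest in the 24-week library. All 31 interferon-stimulated genes were tested, of which 26 were higher and 0 lower, against 4.88% and 3.02% of all genes, and their median log2 fold change was 2.00. Set against the early mean, the median log2 ratio was 2.20 in the 24-week library and 0.72 in the 32-week library. Without the 24-week library 19 members still lay above both early libraries by the same rule (1360 of all 15522 genes), and without the 32-week library 29 did (934 of all genes). In 26 of the 31 genes the 24-week level was at least 1.5 times the 32-week level, and in 0 the reverse held, against 1167 and 2032 of all 15522 genes. None passed edgeR's adjusted threshold, DESeq2 called 4 (1.08% of all genes) and 25 had an unadjusted edgeR p under 0.05 (3.87% of all genes).

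Gbp2, a guanylate-binding protein, was at 7.83, 12.4, 201 and 13.6 CPM in order of age. Psmb8, a catalytic subunit of the immunoproteasome, was at 3.30, 5.98, 113 and 11.9 CPM, and Zbp1, a sensor of nucleic acids, at 0.679, 0.439, 10.6 and 1.88. In all 3 genes the 32-week library was above both early ones, and the 24-week library was several times higher than any other. Their log2 fold changes were 3.40 ± 1.16, 3.75 ± 1.04 and 3.48 ± 0.89 (SE), with adjusted p-values of 0.689, 0.557 and 0.508 in edgeR's test. Of 22 interferon-inducible GTPases, a list compiled after the values had been seen, 20 were tested and all 20 were higher, against 4.88% of all genes. Without the 24-week library 16 of them were higher, as were 1360 of all 15522 genes. The 22 genes had a summed level of 172, 216, 15270 and 562 CPM in order of age. Igtp, a GTPase of the defence against intracellular pathogens, was at 8.55 and 10.1 CPM early, 1813 at 24 weeks and 48.1 at 32 weeks. It shares 15.9% of its 31-base stretches with other genes, and the guanylate-binding protein gene Gbp10 shares 89.8%. Levels in such gene families are therefore less certain.

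Promoters of this group, taken from RefSeq on GRCm38.p6 as the 250 bases before to 50 bases after each start, were searched on both strands for the interferon-stimulated response element, spelled GAAA, any 2 bases and GAAA again, and the GAS element, the interferon-gamma activated site, spelled TTCNNNGAA. The first was found in 13 of the 22 interferon-stimulated genes with a promoter in the table (59.1%) and in 10 of 11 interferon-inducible GTPases (90.9%), against 3.49% of all 27025 promoters. It was found in 1 of 24 promoters of the macrophage list (4.17%). The second was found in 4 of 22, 6 of 11 and 1 of 24 promoters of the same lists, against 8.47% of all. A match is a description of letters and not a shown binding site. Members of both interferon lists were listed for their response to interferon, so these shares may follow from list membership alone. They do not test what differed between the libraries. The promoters below are examples picked by name and do not stand for their groups. They are those of 3 genes led by the 24-week library and of Ccl8 and C1qb, which were high in both late libraries. Capitals mark the matches, of which Ccl8 and C1qb have none.
Ifit1, chr19:34640639-34640938, plus strand: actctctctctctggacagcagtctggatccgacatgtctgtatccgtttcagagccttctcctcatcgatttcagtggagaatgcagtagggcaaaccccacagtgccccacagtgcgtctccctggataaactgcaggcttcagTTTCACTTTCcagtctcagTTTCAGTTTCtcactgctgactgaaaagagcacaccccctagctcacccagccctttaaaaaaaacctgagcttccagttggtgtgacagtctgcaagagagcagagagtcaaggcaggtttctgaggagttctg
Gbp2, chr3:142620413-142620712, plus strand: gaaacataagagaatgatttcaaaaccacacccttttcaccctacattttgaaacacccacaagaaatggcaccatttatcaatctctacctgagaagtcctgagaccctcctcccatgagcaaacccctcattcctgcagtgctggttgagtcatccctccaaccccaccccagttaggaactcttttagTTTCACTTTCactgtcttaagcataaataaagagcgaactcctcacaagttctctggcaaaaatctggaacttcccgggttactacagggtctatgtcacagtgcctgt
Igtp, chr11:58199306-58199605, plus strand: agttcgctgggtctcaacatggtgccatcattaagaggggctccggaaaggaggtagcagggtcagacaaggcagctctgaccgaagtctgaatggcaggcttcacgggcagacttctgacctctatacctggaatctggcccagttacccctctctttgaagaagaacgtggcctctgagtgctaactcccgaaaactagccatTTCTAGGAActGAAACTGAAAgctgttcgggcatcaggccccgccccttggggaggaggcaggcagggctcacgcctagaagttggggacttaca
Ccl8, chr11:82114935-82115234, plus strand: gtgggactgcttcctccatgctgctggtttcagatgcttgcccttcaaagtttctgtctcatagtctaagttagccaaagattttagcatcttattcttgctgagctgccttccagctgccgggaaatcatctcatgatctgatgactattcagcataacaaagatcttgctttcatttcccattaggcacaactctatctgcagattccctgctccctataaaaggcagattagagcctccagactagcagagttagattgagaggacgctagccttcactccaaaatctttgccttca
C1qb, chr4:136886151-136886450, minus strand: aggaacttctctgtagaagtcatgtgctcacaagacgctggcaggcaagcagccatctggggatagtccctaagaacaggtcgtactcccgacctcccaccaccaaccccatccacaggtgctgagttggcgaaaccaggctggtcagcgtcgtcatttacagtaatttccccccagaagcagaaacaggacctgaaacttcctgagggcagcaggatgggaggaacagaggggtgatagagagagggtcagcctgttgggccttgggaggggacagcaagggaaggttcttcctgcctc
In Igtp the GAS match comes first and the response element match after it. Ifit1, which encodes an RNA-binding antiviral protein, was at 4.80, 2.19, 54.4 and 9.34 CPM in order of age and holds 2 matches of the response element.

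Antigen presentation genes followed both patterns. For class I, 21 of 25 tested genes of a list compiled after the values had been seen were higher and 0 lower, against 4.88% and 3.02% of all genes. B2m, the invariant chain of class I molecules, was at 54.2 and 49.8 CPM early, 565 at 24 weeks and 175 at 32 weeks, and H2-D1, a class I heavy chain, at 79.2, 87.1, 433 and 272. Both late libraries were above both early ones, with the 24-week library highest. H2-D1 shares 26.7% of its 31-base stretches with other genes. For class II, H2-Ab1 was at 6.51 and 13.8 CPM early, 66.5 at 24 weeks and 16.3 at 32 weeks, and the class II activator Ciita at 0.814, 2.31, 9.73 and 1.14. The 32-week values of Ciita, H2-Aa and H2-Eb1 lay within the early range, so that these 3 genes overlapped between the sides.

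Other genes were led by the 32-week library instead. Over all 15522 genes this was the more frequent direction, with 2032 against 1167 genes at 1.5-fold. Cxcl13, a chemokine that attracts B cells, had 4, 1, 16 and 3066 counts in order of age. The neutrophil alarmin S100a8 was at 0.814, 0.399, 1.27 and 12.8 CPM, and the acute phase protein Hp at 1.49, 1.08, 4.59 and 23.2. Of 16 neutrophil genes, again a list compiled after the values had been seen, 7 were tested, and all 7 had their 32-week level at least 1.5 times their 24-week level, as had 2032 of all 15522 genes. The summed level of the list was 4.34, 4.15, 8.72 and 61.1 CPM in order of age. With early levels this low, members could pass the filter through the late libraries, so the 7 are a description only. Of 24 lymphoid genes 7 were tested, of which 1 was higher and 3 lower, against 4.88% and 3.02% of all genes. The lower count was 1 without the 12-week or the 32-week library (818 and 1212 of all 15522 genes). It was 4 without the 24-week library (930 of all genes). Lymphoid genes summed to between 9.29 and 17.4 CPM in the db/db libraries.

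**Figure D2:**
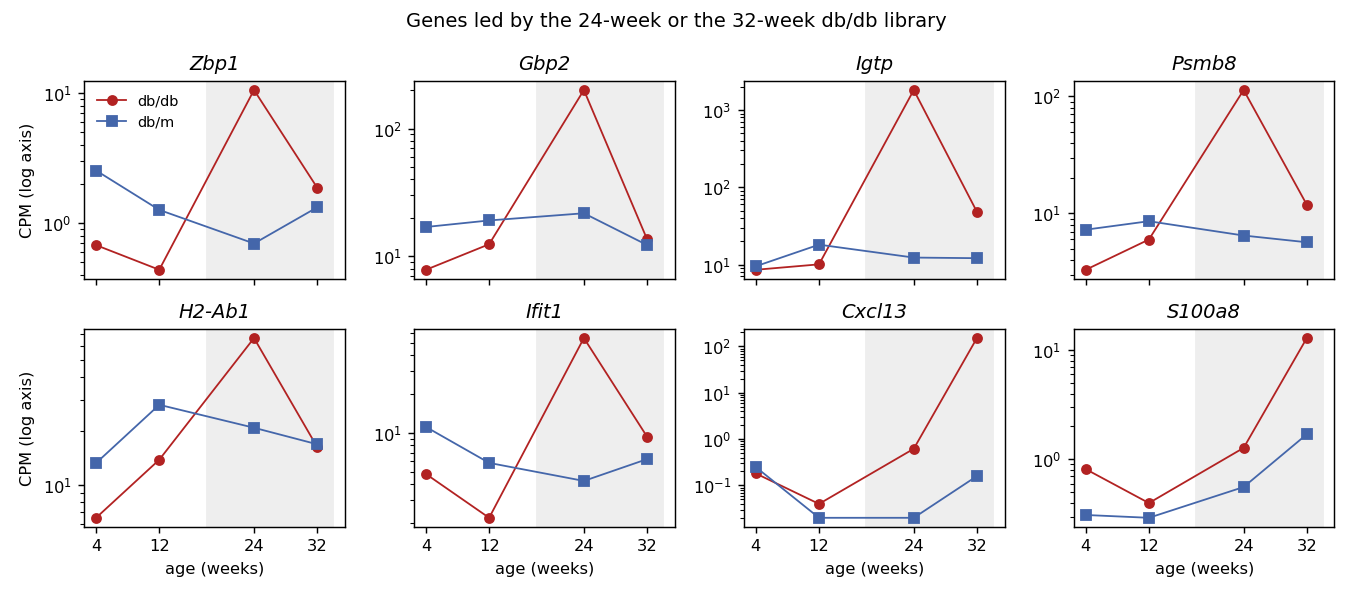
Levels of 8 genes in CPM on a log axis against age in weeks, with 1 library per point, db/db in red circles, db/m in blue squares, late ages shaded and values of 0 drawn at the foot of the axis. Cxcl13 and S100a8 peak in the 32-week db/db library and the other 6 genes in the 24-week db/db library.

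**Figure D3:**
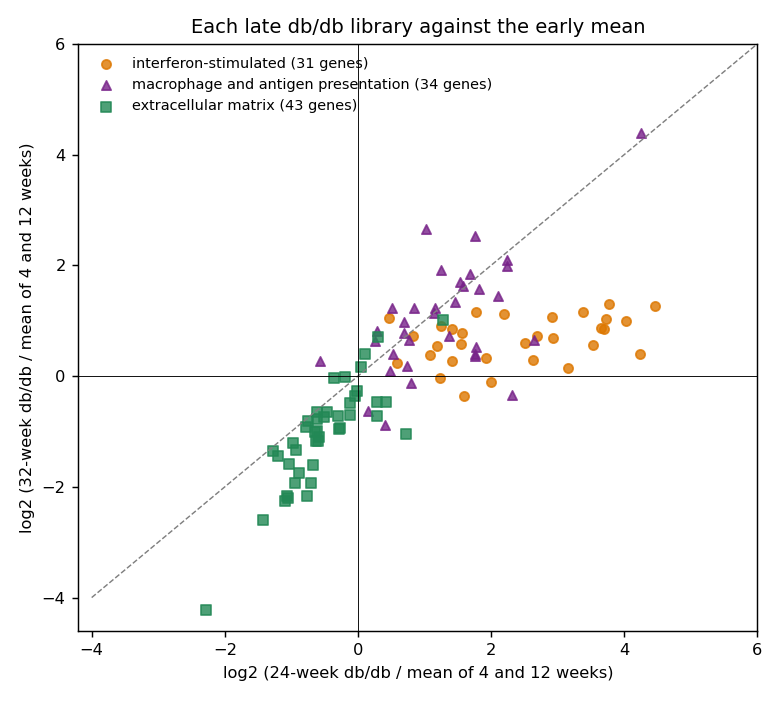
Log2 ratio of each late db/db library to the mean of the early libraries, 24 weeks on the horizontal and 32 weeks on the vertical axis, with 1 point per gene of 3 lists and a dashed line of equality. Interferon-stimulated genes lie mostly below the line (median 2.20 against 0.72), macrophage genes lie around it (1.20 against 0.89) and matrix genes lie mostly in the lower left.

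Many extracellular matrix genes were lower in the late libraries. Of 43 tested genes 19 were lower and 1 (Mmp3) was higher, against 3.02% and 4.88% of all genes, with a median log2 fold change of -0.80. DESeq2 called 3 of them lower (0.279% of all genes), and 0 passed edgeR's adjusted threshold, with 17 lower at an unadjusted p under 0.05 (2.36% of all genes). Eln, which encodes elastin, was at 123 and 77.9 CPM early and 41.1 and 39.3 late, with a log2 fold change of -1.32 ± 0.25 (SE) and an adjusted p of 0.393 in edgeR's test. Col1a1 and Col3a1, the fibrillar collagens of the heart, were at 299, 108, 96.7 and 45.0 CPM and at 445, 183, 151 and 68.0 CPM, each in order of age. The 12-week and 24-week values of both collagens were close, so that the gap between the sides rests largely on the youngest and the oldest library. Of 22 basement membrane genes, a list compiled after the values had been seen, 7 were lower and 1 higher. Without 4 weeks 4 were lower (708 of all 15522 genes), and without 12 weeks 11 were (818 of all genes). Col5a2 was at 91.5 and 43.7 CPM early and 29.1 and 24.5 late. Without the 4-week library 9 matrix genes were lower (708 of all 15522 genes), and without the 12-week library 31 were (818 of all genes). Without the 24-week library 32 were lower (930 of all genes) and without the 32-week library 18 (1212 of all genes).

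In the fibroblast list 5 of 18 tested genes were lower and 1 (Ly6a) was higher, against 3.02% and 4.88% of all genes, with a median of -0.50. Leaving out a library gave 3 lower without 4 weeks, 8 without 12 weeks, 9 without 24 weeks and 5 without 32 weeks. Of all 15522 genes, 708, 818, 930 and 1212 were lower in these settings, in the same order. Mfap4, a protein of elastic fibres, was at 29.3 and 11.1 CPM early and 6.10 and 5.14 late. The general fibroblast markers differed less, Pdgfra being at 108, 116, 89.9 and 78.6 CPM and Dcn at 524, 406, 453 and 361 in order of age. In the smooth muscle and pericyte list 3 of 13 genes were lower and 0 higher. The 3 were Kcnj8, a potassium channel of pericytes, at 39.2 and 43.7 CPM early and 20.1 and 25.4 late, Cspg4 at 80.5 and 61.8 early and 47.7 and 38.3 late, and Pdgfrb at 173 and 166 early and 107 and 114 late. Of this list 1 gene was lower without 4 weeks (708 of all 15522 genes) and 7 without 12 weeks (818 of all genes). Without either late library 2 were lower (930 of all genes without 24 weeks, 1212 without 32 weeks). The 4-week library, high in valve and cartilage genes, was also the highest in Mfap4, Wif1 and Col1a1, and the part of that tissue in these values was not tested.

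Single genes with large differences on the lower side came from other functions. Aplnr, the apelin receptor of endothelial cells, was at 11.8 and 25.5 CPM early and 1.505 and 2.17 late, with an early mean 10.2 times the late mean and a log2 fold change of -3.35 ± 0.46 (SE) and an adjusted p of 0.227 in edgeR's test. Its ligand gene Apln was at 11.9 and 11.1 CPM early and 9.88 and 4.45 late. Nes, which encodes the intermediate filament nestin, was at 28.5 and 34.4 CPM early and 11.2 and 12.8 late. Eno3, the muscle enolase of glycolysis, was at 421 and 567 CPM early and 227 and 208 late, and the sodium pump subunit Atp1b2 at 26.97 and 25.9 early and 12.4 and 13.8 late. Early and late libraries were apart in all of these. Nrep, Cd109, Slc36a2, Ltbp4, Vma21 and the antisense transcript Uckl1os complete the 10 lower genes with the smallest p among those with a mean of at least 1 CPM. Among them Uckl1os had the largest ratio, with 142 and 173 counts early and 11 and 17 late, although whether the counting used strand was not given in the sources used here, and without it reads of an antisense transcript and of its partner gene cannot be told apart. Rac1, a small GTPase, was among the 10 higher genes at 46.3 and 40.4 CPM early and 154 and 136 late, but db/m hearts had 149, 142, 147 and 49.3 CPM in order of age, so that its lower level occurred at different ages in the 2 genotypes.

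**Figure D4:**
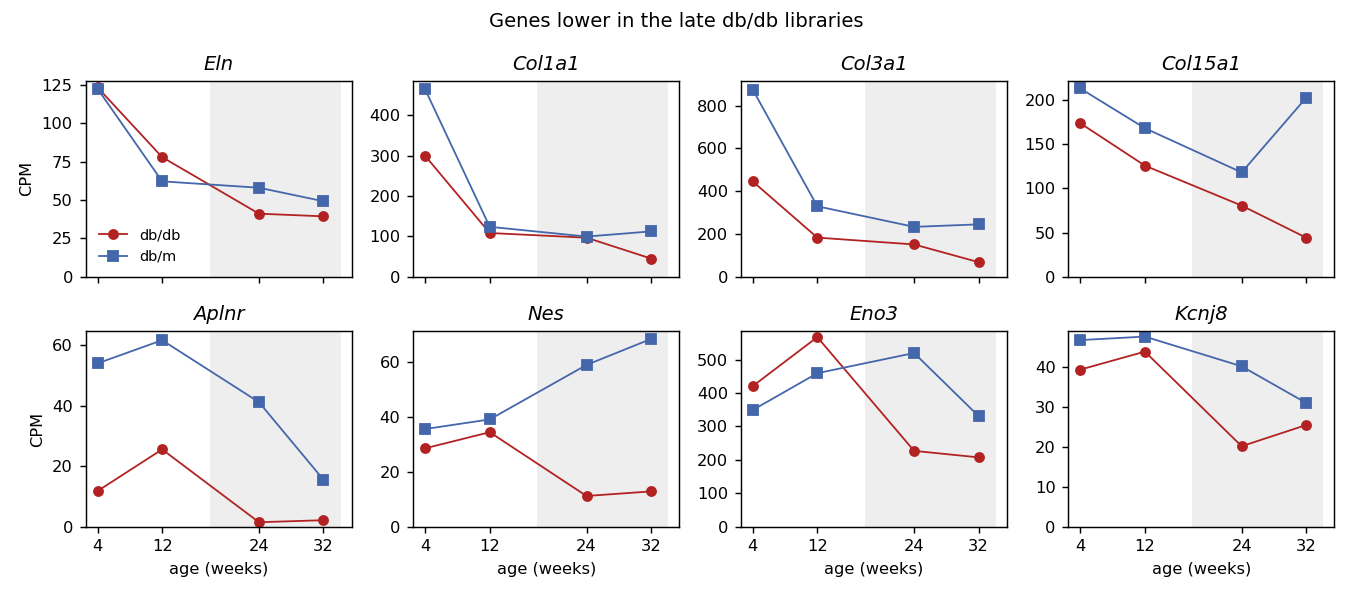
Levels of 8 genes in CPM (vertical axis, from 0) against age in weeks, with 1 library per point, db/db in red circles, db/m in blue squares and late ages shaded. In db/db the matrix genes are lower at each later age, from 299 to 45.0 CPM for Col1a1, and Aplnr, Nes, Eno3 and Kcnj8 are lower at 24 and 32 weeks than at 4 and 12.

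Of 30 genes of cardiac stress and sarcomere isoforms 1 was higher and 2 lower, near the 4.88% and 3.02% of all genes, with a median of -0.08. Without the 4-week library 7 were higher, as were 1271 of all 15522 genes. Without the 12-week library 7 were lower (818 of all genes), and without the 24-week library 9 were (930 of all genes). Without the 32-week library 5 were higher (934 of all genes). Myh7, the slow myosin heavy chain that is raised in stressed rodent hearts, was at 1300 and 844 CPM early and 2532 and 1767 late, while the dominant adult isoform Myh6 stayed between 31140 and 36770 CPM. Myh7 had a log2 fold change of 1.00 ± 0.30 (SE) and did not pass. The stress peptides Nppa and Nppb overlapped between the sides, Nppb at 26.8, 25.6, 60.9 and 13.8 CPM in order of age.

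Retinol metabolism and ferroptosis are the subjects of the study. Of 26 tested genes of retinol metabolism 2 were higher (7.69% against 4.88% of all genes) and 0 lower, with a median log2 fold change of -0.04. Without the 4-week library 4 were higher and 2 lower, against 1271 and 708 of all 15522 genes. The 2 higher genes were Cyp1a1, at 1.99, 0.359, 3.47 and 6.92 CPM in order of age, and Cyp3a11, at 0.84 CPM or less in every db/db library. Rdh10, which oxidises retinol to retinal, was at 8.42 and 9.65 CPM early and 8.99 and 8.60 late, and its log2 fold change was -0.04 ± 0.22 (SE). Cyp26b1, which degrades retinoic acid, was at 8.51 and 52.4 CPM early and 19.1 and 19.9 late, and Aldh1a2, which makes it, at 1.63, 2.55, 1.89 and 1.73 in order of age. The receptors Rara, Rarb and Rarg had log2 fold changes of 0.35 ± 0.18, -0.24 ± 0.20 and -0.44 ± 0.27 (SE). None of these 6 genes passed the test, and with SEs of this size that does not show that their levels were alike. Of 37 genes of ferroptosis and iron 5 were higher (13.5% against 4.88% of all genes) and 1 lower. Without the 4-week library 10 were higher and 4 lower, against 1271 and 708 of all 15522 genes, and without the 24-week library 6 and 2, against 1360 and 930. The higher genes included Cybb, described above, Cp, the ferroxidase ceruloplasmin, at 125 and 126 CPM early and 215 and 234 late, and the metal transporter Slc39a8. Ptgs2 was the lower one, at 3.71 and 2.15 CPM early and 1.08 and 0.84 late. The ferroptosis suppressors Gpx4 and Aifm2 had log2 fold changes of 0.15 ± 0.16 and -0.0075 ± 0.20 (SE), and the iron exporter Slc40a1 one of -0.53 ± 0.29. Lepr itself was at 5.75, 2.43, 4.13 and 6.23 CPM in order of age.

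Genes of energy metabolism had medians near 0. Of 47 genes of fatty acid uptake and oxidation 2 were higher and 1 lower, near the 4.88% and 3.02% of all genes, with a median of -0.0023. Bdh1, which interconverts ketone bodies, was at 18.1 and 29.7 CPM early and 84.3 and 44.3 late, Ucp2 at 123 and 73.3 early and 148 and 158 late, and Oxct1, which activates ketone bodies for oxidation, at 673 and 1088 early and 638 and 426 late. In the glucose list 1 of 44 genes (Eno3) was lower and in the oxidative phosphorylation list 0 of 30 were higher or lower.

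The same comparison in db/m hearts gave 0 genes past edgeR's adjusted threshold (0% of 15372, with 287 higher and 434 lower, or 1.87% and 2.82%, at an unadjusted p under 0.05), while DESeq2 called 15 and 6 (0.106% and 0.0423%). By non-overlap 455 genes (2.96%) were higher and 716 (4.66%) lower in db/m. Tested and higher in both genotypes were 56 genes, or 7.40% of the 757 in db/db and 12.3% of the 455 in db/m. Another 105 were higher in db/db and lower in db/m, or 13.9% of the 757 and 14.7% of the 716. On the lower side the order was the other way, with 63 genes lower in both genotypes (13.5% of the 468 in db/db and 8.80% of the 716 in db/m) and 27 lower in db/db and higher in db/m (5.77% of the 468). In the macrophage list db/m had 1 gene higher and 7 lower with a median of -0.35, and in the interferon list 0 higher and 13 lower with a median of -0.69. The matrix list had a median of -0.25 in db/m, with 3 genes higher and 7 lower. The 4-week db/m library had the highest level of several macrophage genes in that genotype, with Mpeg1 at 60.0 CPM against 21.1 or less at the other ages.

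**Figure D5:**
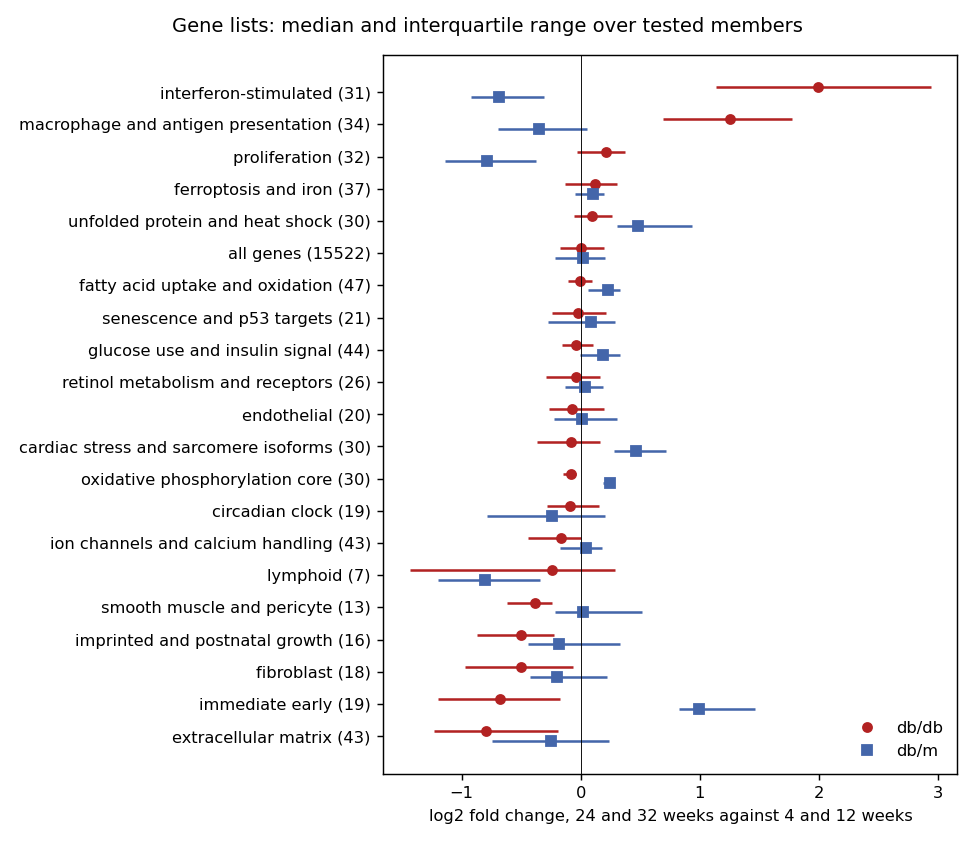
Median log2 fold change of late against early hearts (points) with the interquartile range over tested genes (lines) for each gene list, db/db in red circles and db/m in blue squares, with the number of genes tested in db/db in brackets. Interferon-stimulated and macrophage genes have medians of 2.00 and 1.25 in db/db and of -0.69 and -0.35 in db/m.

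The difference between the genotypes in this change was tested as an interaction. By edgeR's test 0 of 16008 genes passed in either direction (0% each way), with 617 higher and 296 lower at an unadjusted p under 0.05 (3.85% and 1.85%). DESeq2 called 69 genes higher and 23 lower (0.44% and 0.147%). Of the 34 macrophage genes 19 and of the 31 interferon genes 26 were on the higher side at that unadjusted p, and 0 on the lower side. The smallest p-values on the higher side belonged to Serpina3g, Siglec1, Pld4, Cybb and Fam109a. Siglec1 was at 19.6, 10.5, 5.82 and 5.19 CPM in db/m in order of age, lower late than early, and its log2 difference between the genotypes was 3.77. Pld4, a nuclease of phagocyte lysosomes, was at 4.39 and 5.71 CPM early and 13.3 and 15.02 late in db/db, and at 10.7, 8.77, 5.03 and 5.19 in order of age in db/m. Its log2 difference was 2.42, and neither gene passed edgeR's adjusted threshold. Without the 4-week db/m library 0 genes passed in either direction, and the log2 differences of Siglec1, Pld4 and Cybb were 3.25, 2.25 and 2.08. On the lower side were Nes, Zscan2, a second identifier named Ltbp4, Armc2 and Prnd. Nes was at 35.5, 39.0, 58.8 and 68.2 CPM in db/m in order of age, higher late than early, against lower in db/db. Prnd, next to the prion gene, had 52 and 26 counts early and 0 and 0 late in db/db, at least 12.8-fold lower against a floor of 3 counts in each late library, but 96.4% of its 31-base stretches also occur in other gene models.

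Immediate early genes, which respond within minutes to handling and stimulation of tissue, had medians of opposite sign in the genotypes. In db/db 10 of 19 tested genes were lower and 0 higher, with a median of -0.68, against 3.02% and 4.88% of all genes. In db/m 6 were higher and 0 lower, with a median of 1.00, against 2.96% and 4.66% of all genes. At an unadjusted p under 0.05 of the interaction, 10 of them were on the lower side and 0 on the higher, against 1.85% and 3.85% of all genes. Fos was at 15.2 and 30.0 CPM early and 5.79 and 7.86 late in db/db. In db/m it was at 11.4, 2.53, 4.98 and 38.9 CPM in order of age, so that the 32-week library holds the highest db/m value. Of imprinted and postnatal growth genes 5 of 16 were lower in db/db and 0 higher, against 3.02% and 4.88% of all genes. Of this list 3 were lower without 4 weeks, 8 without 12 weeks and 7 without 24 weeks. Of all 15522 genes, 708, 818 and 930 were lower in these settings. Igf2, a fetal growth factor, was at 28.6 and 27.7 CPM early and 15.2 and 8.70 late, and H19 at 9.68, 4.43, 3.55 and 1.73 in order of age.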

How the data were processed

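RNA-seq of 8 mouse heart libraries was analysed from the gene-level count table that the authors deposited, which holds unnormalized read counts for 34745 genes. The deposited FPKM values were made by the authors from the same libraries and were not used here. The submitters' processing notes name HISAT2, StringTie 1.3.0 and GRCm38, without roles, and the counting tool is not given in the sources used here.

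Counts were filtered with filterByExpr, scaled by TMM within a genotype and tested with edgeR 4.0.16 (quasi-likelihood test, Benjamini-Hochberg adjustment, threshold 0.05) in R 4.3.3. The genotype difference was an interaction in a fit of all 8 libraries. DESeq2 1.42.0 and limma 3.58.1 were alternatives. The 1.5-fold rule for non-overlap and the log2 ratios of single libraries added 0.5 CPM, while printed fold ratios of means added nothing. The study's methods call the libraries strand-specific. The fits were tested on simulated data. For genes set to differ 2-fold, edgeR recovered 3.05% in db/db and 0% for the genotype difference, and DESeq2 6.6% and 2.02%. For genes set to differ 4-fold, edgeR recovered 82.2% and 37.8%, and DESeq2 78% and 41.3%. False calls at 4-fold were 7 in db/db and 2 for the genotype difference in edgeR, and 16 and 6 in DESeq2.

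Named genes were the 10 with the smallest p on each side, up to 4 non-overlapping members of each list, genes the study is about, the 5 with the smallest interaction p on each side and the 3 most abundant of each other-tissue list. Not all genes this rule picks are described. Other genes named were chosen after their values were seen, as were 8 lists (complement, class I presentation, interferon-inducible GTPases, Fc receptors and oxidase, chemokines, acute phase, neutrophil, basement membrane). All members and lists were chosen with earlier results of these data known.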

Additional observations from a re-analysis of the deposited data

Results flagged for a closer look

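The late against early change differed between the genotypes for some genes in 1 test of the interaction. DESeq2's Wald test called 69 genes with a more positive change in db/db than in db/m and 23 with a more negative one, of 15697 tested (0.44% and 0.147%). By edgeR's quasi-likelihood test 0 passed in either direction, with 617 and 296 genes at an unadjusted p under 0.05. By the same test 32 and 11 genes passed with no filter beyond 1 count, and 40 and 2 without the 32-week db/db library, so that the result depends on the test, the filter and that library. Adgre1, the macrophage marker described above, was among the 69. Its log2 difference was 2.69, with an SE of 0.66 from edgeR's test. Its adjusted p was 0.0093 in DESeq2's test and 0.605 in edgeR's test.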

How the results depend on the processing

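With 2 libraries a side, the number of genes called depended on the test. In db/db, where edgeR called 1 gene higher and 0 lower, 107 were higher and 20 lower without a filter beyond 1 count, and 154 and 40 by DESeq2. The count of higher genes was 0 with total-count scaling, with a filter of 1 CPM in every library, in limma-voom, in a fit of all 8 libraries, and with age as a linear term or a rank. Leaving out each library in turn gave 1 to 74 higher and 0 to 39 lower. Without the 4-week library 51 were higher and 39 lower, without the 12-week library 6 and 6, without the 24-week library 1 and 0, and without the 32-week library 74 and 4. In db/m 1 gene was higher without the filter, DESeq2 called 15 higher and 6 lower, and leaving out libraries gave 0 to 2 higher and 0 to 13 lower, the highest without the 12-week library. The genotype difference gave 32 higher and 11 lower without the filter, 69 and 23 by DESeq2, and 0 to 40 and 0 to 2 without single libraries, the highest without the 32-week db/db library. The cause was not tested.

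Non-overlapping genes numbered 348 higher and 111 lower at a 2-fold ratio, and 479 and 307 with the 1 CPM filter. Leaving out db/db libraries, an alternative chosen after seeing the data for these and the other lists above, gave 23 to 26 macrophage genes higher and 0 to 2 lower, 19 to 29 interferon genes higher, 1 to 3 matrix genes higher and 9 to 32 lower, and 0 to 1 immediate early genes higher and 7 to 13 lower. Over all 15522 genes the same settings gave 934 to 1360 higher and 708 to 1212 lower.

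Ages were shared by the genotypes, and a link between animals was not given in the sources used here. With age as a replicate block, the genotype difference again gave 0 genes higher and 0 lower, and the 10 genes named for that difference kept their direction.

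The named genes were recomputed in each setting except the most abundant genes of the clock and other-tissue lists, such as Hbb-bs. Of those recomputed, 5 changed sign in some setting, and none of them passed the test there. Leaving out each db/db library in turn gave log2 fold changes of -0.23 to 0.18 for Aifm2 (0.011 without the 12-week library), -0.16 to 1.08 for Lepr, -0.14 to 0.060 for Rdh10, -0.50 to 0.15 for Aldh1a2 and -1.43 to 1.19 for Cyp26b1, whose positive value, like those of Rdh10 and Aldh1a2 and the negative one of Lepr, came without the 12-week library. Aifm2 was at 0.016 with total counts and Cyp26b1 at 0.0058 with age as a rank. Ccl8 was not tested with the filter of 1 CPM in every library. It kept its direction in the other settings, and its adjusted p was above 0.05 with total counts, in limma-voom, without the 24-week library, in the fit of all 8 libraries and with age as a linear term or a rank.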

Other observations

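Markers of other tissues varied between single libraries. The erythroid list summed to 306, 430, 553 and 118 CPM in db/db in order of age, with the beta-globin gene Hbb-bs at 168, 249, 317 and 42.9. Alb, the serum albumin of the liver, was at 0.317 CPM in the 4-week db/db library, at 14.7 to 18.9 in the other 3 and at 0.954 or less in every db/m library. The heat shock genes Hspa1a and Hspa1b were at 30.3 and 28.1 CPM in the 4-week db/db library and at 3.83 or less in the other db/db libraries, while the 32-week db/m library held 139.8 and 143.7. Both genes share most of their 31-base stretches with other gene models (65.4% and 68.0%), so that the split between them is uncertain.

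Of 32 tested proliferation genes 1 (Mcm3) was higher and 1 (Prc1) lower in db/db, against 4.88% and 3.02% of all genes, with a median log2 fold change of 0.21. Without the 24-week library 4 were lower, as were 930 of all 15522 genes. Mcm3, a subunit of the replication helicase, was at 4.03 and 3.75 CPM early and 6.48 and 7.56 late. In db/m 1 gene of the list was higher and 11 were lower, against 2.96% and 4.66% of all genes, with a median of -0.79.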
